A study of Rattus norvegicus with 4 samples.

Results

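The genes of the intermediate filaments were followed in RNA-Seq libraries of the PC12 clones wtPC12 and hrPC12. The list holds 10 genes taken by name, Nefl, Nefm, Nefh, Ina, Prph, Vim, Nes, Des, Krt8 and Krt18, and 8 of them have a row among the 25810 genes of the count files. No row is named Nes or Krt18, and neither gene was analysed under its symbol. A row named NEST_RAT is described further below, outside the counts of members. The PC12 line was grown from a tumor of rat adrenal chromaffin cells, the pheochromocytoma, and its cells share many traits with sympathetic neurons. The labels describe wtPC12 as wild type cells with low REST and hrPC12 as cells with high REST. By the account of the study the hrPC12 clone arose spontaneously. REST is a repressor that silences neuronal genes in most nonneural cells by binding the DNA element RE-1. Neither clone was treated or transfected, and each group is 1 clone, so effects of REST cannot be told apart from whatever else sets the clones apart. Each clone had 2 libraries, of 20975027 and 21999191 reads on genes in wtPC12 and of 27246502 and 21634943 in hrPC12. Nothing in the labels says that the libraries of a clone came from separate cultures, so the p values measure the spread between libraries, which may be technical.

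Intermediate filaments are the ropes of the cytoskeleton, built from rod-shaped proteins that pair along a coiled coil and assemble without polarity. The subunits are a mark of the type of cell. Neurons use the neurofilament triplet of light, medium and heavy chains together with α-internexin and, mostly in peripheral neurons, peripherin. Mesenchymal cells use vimentin, muscle cells desmin, neural and muscle progenitors nestin, and simple epithelia the pair of keratins 8 and 18. Chromaffin cells and PC12 cells are known for peripherin and neurofilaments.

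Among the 8 genes 3 differed between the clones past both thresholds of the study, an adj. p value under 0.01 and a log2 fold change (log2 FC, hrPC12 over wtPC12) past 2 in either direction. Vim rose, and Ina and Krt8 fell. Of all 13726 tested genes, 5.46% fell and 4.84% rose past both thresholds. The neurofilament genes moved apart. Nefl rose and Nefh fell with smaller changes, at adj. p values under 0.01 and within the log2 FC threshold. Nefm, Des and Prph did not pass either threshold. Values are read counts normalized with edgeR's TMM factors, which scale each library to a common depth. They are not divided by the length of the transcript, so levels were compared between clones and not between genes.

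The sequences before the starts of the 3 genes past both thresholds are shown to set the gene that rose beside those that fell. They come from RefSeq, build GRCr8, a later build than that of the counts. Each runs from 250 to 71 bases before the annotated start, 5′ to 3′ on the strand of the gene, and lies at chr17:81577011-81577190 (+) for Vim, chr1:255837879-255838058 (+) for Ina and chr7:135010410-135010589 (−) for Krt8. Capitals mark the letters of RE-1 (TCAGCACC on its left, GGACAG on its right), of a TATA box (TATAAA), of a GC box (GGGCGG) and of an E-box (CAGCTG), searched on both strands.
Vim: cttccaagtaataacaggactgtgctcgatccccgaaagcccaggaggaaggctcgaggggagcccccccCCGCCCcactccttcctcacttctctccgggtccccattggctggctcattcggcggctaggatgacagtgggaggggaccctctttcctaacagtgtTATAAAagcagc
Ina: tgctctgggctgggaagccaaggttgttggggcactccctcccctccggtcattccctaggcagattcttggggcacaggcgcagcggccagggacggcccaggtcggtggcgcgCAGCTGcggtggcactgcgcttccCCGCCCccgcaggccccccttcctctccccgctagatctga
Krt8: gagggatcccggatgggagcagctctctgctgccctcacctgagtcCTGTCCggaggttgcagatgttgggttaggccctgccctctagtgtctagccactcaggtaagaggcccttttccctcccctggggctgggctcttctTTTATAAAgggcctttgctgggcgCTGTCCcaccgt

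The window of Vim held a GC box on the opposite strand and a TATA box. That of Ina held an E-box and a GC box on the opposite strand. In Krt8 the TATA box was read on both strands, where its letters overlap, and GGACAG occurred at 2 places on the opposite strand, without TCAGCACC. Of 33469 RefSeq windows of the same length, TCAGCACC was in 0.81%, GGACAG in 13.6%, TATAAA in 9.01%, GGGCGG in 21% and CAGCTG in 8.41%. Windows were found for 7 of the 10 genes, and TCAGCACC was in none of these 7. A match describes the letters only. Sites outside these windows, whether farther from the start or nearer to it, were not searched.

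The repressor gene Rest had 43.0 and 132 normalized counts in wtPC12 and 964 and 915 in hrPC12, which is the order that the labels give. Its log2 FC was 3.42 (SE 0.57), and its adj. p value of 0.0115 (edgeR's quasi-likelihood test) missed the threshold. Rest missed it too in edgeR with filterByExpr (adj. p value 0.0111) and with a prior count of 2 (0.0115). Rest passed both thresholds with RLE factors (adj. p value 0.00207), library totals (0.00356), every gene with a read (0.00145), the legacy option off (0.00918) and DESeq2 (1.81e-10). It also passed in edgeR without wtPC12 replicate 1 (log2 FC 2.80), hrPC12 replicate 1 or hrPC12 replicate 2, and did not without wtPC12 replicate 2 (log2 FC 4.44, adj. p value 0.0140). The chromaffin markers (Th, Dbh, Ddc, Chgb, Slc18a1, Phox2a) were used to check the label of the line. Their summed level was 814643 to 952888 normalized counts in wtPC12 and 45708 to 50282 in hrPC12, and 5 of the 6 tested fell past both thresholds. Ddc did not fall, with 24196 and 20841 normalized counts in wtPC12 and 26281 and 27995 in hrPC12 (log2 FC 0.27). Most of the wtPC12 sum is Chgb, with 687936 and 626776 normalized counts, and Th, with 202932 and 132838. Markers of other cell types were low in both clones for endothelial cells (29.1 to 34.0 summed in wtPC12, 61.7 to 70.3 in hrPC12), leukocytes (33.0 to 34.9 and 84.7 to 94.1) and Schwann or glial cells (162 to 166 and 237 to 257), with Sox10 at 0 reads throughout and Ptprc at 0 in all libraries but hrPC12 replicate 1. Of the 2, 2 and 1 genes of these lists that were tested, 0 passed both thresholds with edgeR or DESeq2, and 1, 1 and 0 had an unadjusted p under 0.05. Over all 13726 tested genes, 6357 had an unadjusted p under 0.05 (edgeR). In the fibroblast list 2 of 5 tested genes rose, Col1a1 (log2 FC 4.71) and Col1a2 (6.87), and Lum, not tested, had 0 reads in wtPC12 and 22 and 23 in hrPC12. Dcn and Thy1 had log2 FC of −3.10 and −0.99 and did not pass. The summed level of the list, 16219 to 17978 in wtPC12 and 8994 to 9182 in hrPC12, is nearly all Thy1, with 17929 and 16186 against 8532 and 8674.5 normalized counts. The part of other cells in the results below was not tested.

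**Figure D1:**
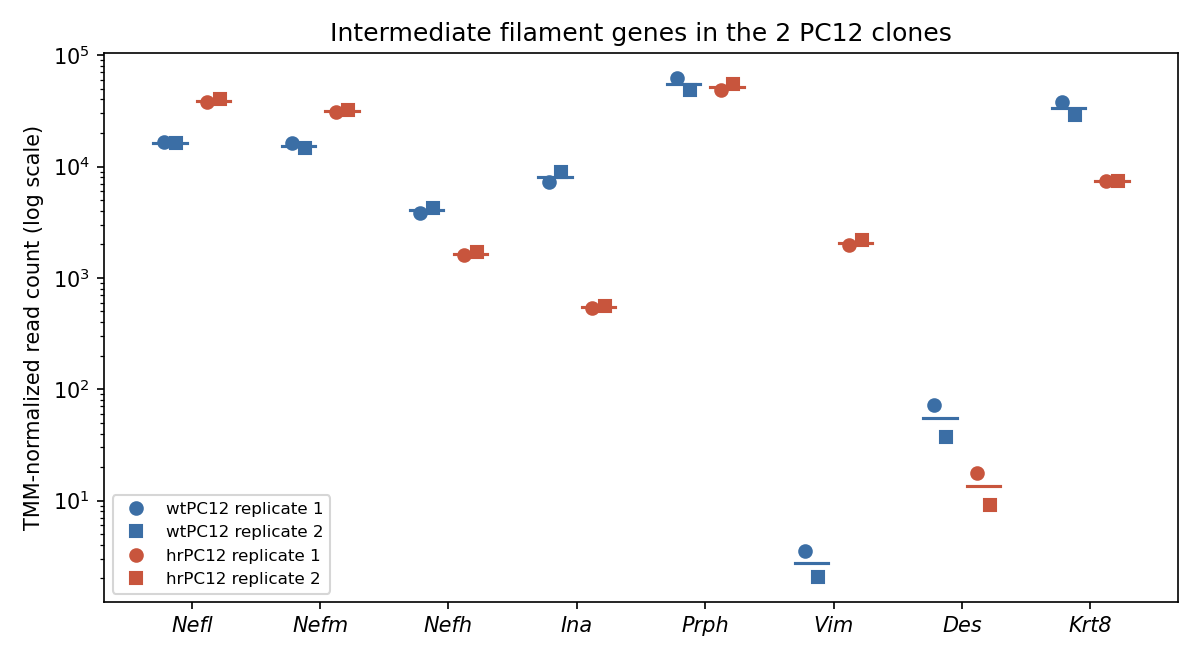
TMM-normalized read counts (log scale) of the 8 intermediate filament genes in each library. Blue stands for wtPC12, red for hrPC12, circles for replicate 1, squares for replicate 2, and lines for the mean of a clone. The clones are far apart for Vim and Ina, on both sides of each other for Nefl and Nefh, and overlap for Prph.

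The light chain of the neurofilaments, coded by Nefl, is the subunit on which the other chains assemble. Nefl had 16469 and 16223 normalized counts in the wtPC12 libraries and 37589 and 40190 in the hrPC12 libraries. Both hrPC12 libraries were above both of wtPC12, and the libraries of a clone were close to each other. This is a log2 FC of 1.25 (SE, the standard error, 0.19), or 2.38-fold, with an adj. p value of 0.00884 from edgeR's quasi-likelihood test. With each library left out in turn the adj. p value lay between 0.0291 (without hrPC12 replicate 1) and 0.0586 (without hrPC12 replicate 2), with 0.0442 without wtPC12 replicate 1 and 0.0355 without wtPC12 replicate 2, past the threshold in no case, while the log2 FC stayed between 1.16 and 1.30.

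Nefm codes for the medium chain, which carries a long tail that projects from the filament. It had 16176 and 14584 normalized counts in wtPC12 and 30709 and 32224 in hrPC12. The clones did not overlap here either. For Nefm the log2 FC was 1.03 (SE 0.19, 95% interval 0.55 to 1.51), with an adj. p value of 0.0153 (edgeR) that missed 0.01. In the GRCr8 assembly Nefl and Nefm are neighbours, separated by a pseudogene, and another annotated gene overlaps the end of Nefm. The annotation of the build that was counted was not used here.

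Nefh, which codes for the heavy chain and is known to be added late in the maturation of neurons, was lower in hrPC12. It had 3819 and 4265 normalized counts in wtPC12 and 1602 and 1699 in hrPC12. Both hrPC12 libraries lay below both of wtPC12. The log2 FC was −1.29 (SE 0.17), 2.45-fold lower, with an adj. p value of 0.00562 from edgeR's test. Without hrPC12 replicate 1, hrPC12 replicate 2 or wtPC12 replicate 2 the adj. p value was 0.0163, 0.0175 and 0.0215, and without wtPC12 replicate 1 it was 0.00965.

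Ina codes for α-internexin, the neuronal subunit that is known to appear early in development and to join the triplet in central neurons. It fell from 7230 and 8980 normalized counts in wtPC12 to 532 and 558 in hrPC12. No library of one clone came near those of the other. Its log2 FC was −3.90 (SE 0.21), 14.9-fold lower, with an adj. p value of 0.000514 (edgeR). This put Ina at a percentile of 3.47 among the log2 FC of all 13726 genes tested. Without wtPC12 replicate 2 its log2 FC was −3.73 and its adj. p value 0.0134, past the threshold no more, as for every gene in that setting.

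Prph codes for peripherin, the filament protein of peripheral neurons and of PC12 cells. It had 62408 and 48153 normalized counts in wtPC12 and 48523 and 54589 in hrPC12. The libraries of the clones were interleaved, and the 2 libraries of wtPC12 differed more than the means of the clones. For Prph the log2 FC was −0.10 (SE 0.24, adj. p value 0.761 from edgeR), with a 95% interval of −0.72 to 0.51. A change of over 1 on the log2 scale lies outside this interval. Without wtPC12 replicate 1 the sign turned, with a log2 FC of 0.070.

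**Figure D2:**
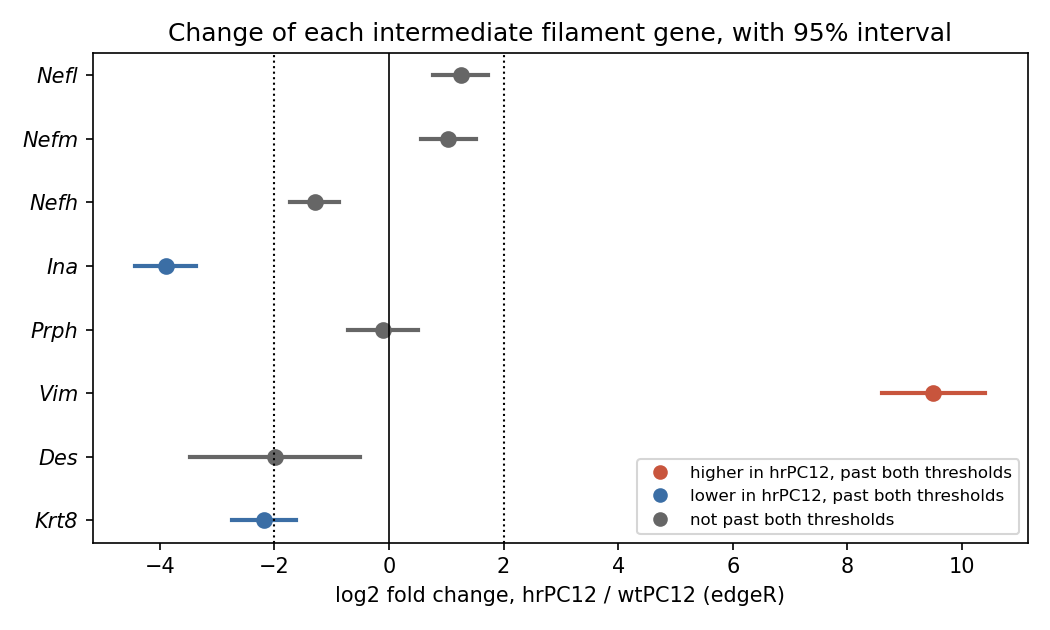
Log2 FC (hrPC12 over wtPC12) of the 8 genes as fitted by edgeR, with 95% intervals as lines. Dotted lines mark the threshold of 2 in either direction. Red and blue are genes past both thresholds, from Vim at 9.50 to Ina at −3.90, and grey are the others, with the interval of Prph across 0.

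Ratios of reads between genes of the same library do not depend on the scaling of the libraries, and the lengths of the genes cancel when the ratio is compared between clones. There were 4.31 and 3.80 Nefl reads for each Nefh read in wtPC12, and 23.5 and 23.7 in hrPC12. The ratio was 5.81 times as high in hrPC12. For Nefm per Nefh the ratios were 4.24 and 3.42 in wtPC12 and 19.2 and 19.0 in hrPC12, 4.98 times as high. The light and medium chains kept closer to each other, with 1.02 and 1.11 Nefl reads per Nefm read in wtPC12 and 1.22 and 1.25 in hrPC12. These ratios were set against the spread of 2 libraries per clone, where an exact 2-sided permutation test cannot give a p under 0.333.

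The ratio of Nefl to Ina was the one that differed most among the 8 ratios computed. It was 2.28 and 1.81 in wtPC12 and 70.7 and 72.1 in hrPC12, 35.0 times as high. Prph per Nefl went the other way, with 3.79 and 2.97 in wtPC12 and 1.29 and 1.36 in hrPC12. Of the reads on the 5 neuronal genes, Prph held 58.8% and 52.2% in wtPC12 and 40.8% and 42.2% in hrPC12. The share of Nefl was 15.5% and 17.6% in wtPC12, and 31.6% and 31.1% in hrPC12. That of Ina was 6.81% and 9.74% in wtPC12, and 0.447% and 0.431% in hrPC12. Together the 5 genes took 0.435% and 0.407% of all reads on genes in wtPC12 and 0.516% and 0.590% in hrPC12. The sum of the 5 genes differed less than their mix.

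**Figure D3:**
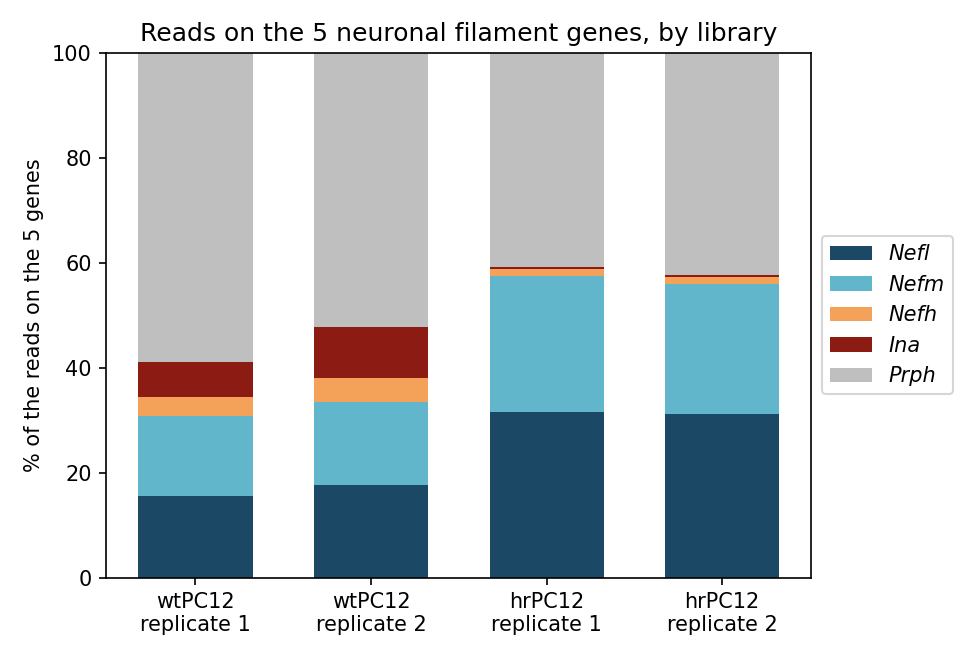
Share (%) of each neuronal filament gene among the reads on Nefl, Nefm, Nefh, Ina and Prph, with 1 bar per library. Shares are of reads and not corrected for transcript length. In both hrPC12 bars Nefl and Nefm are larger, and Ina, at 0.447% and 0.431%, is close to invisible.

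Vim codes for vimentin, the filament protein of mesenchymal cells. It had 3 and 2 reads in the wtPC12 libraries and 2326 and 2153 in the hrPC12 libraries, or 3.49 and 2.06 against 1969 and 2178 normalized counts. The wtPC12 libraries were thus at the floor of 3 reads or below it, and those of hrPC12 far above. The ratio of the summed reads was 756, with a 95% interval of 324 to 2329 that covers counting error only. The fitted log2 FC was 9.50 (SE 0.35, adj. p value 0.000261 from edgeR), at a percentile of 99.7 among all tested genes, and it depends on the prior count, from 8.77 with a prior count of 2. It was 9.16 without wtPC12 replicate 2, where the adj. p value of 0.0134 missed the threshold. Among the 10818 tested genes with a mean of at least 100 normalized counts, those whose profile over the 4 libraries was nearest to that of Vim were Schip1, Orm1 and Gzmb (Euclidean distance of centred log2 values 0.185, 0.248 and 0.252). For Prph they were Cfl1, Wbscr16 and Dap3 (0.0181, 0.0256 and 0.0262). A profile over 4 libraries of 2 clones holds only the difference between the clones and that between replicates. Schip1, Orm1 and Gzmb had log2 FC of 9.55, 9.49 and 9.40, near that of Vim. Shared regulation of these genes was not tested.

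Des codes for desmin, the filament protein of muscle. It had 72.1 and 37.1 normalized counts in wtPC12 and 17.8 and 9.11 in hrPC12, from 62, 36, 21 and 9 reads. The hrPC12 libraries lay below those of wtPC12, and the libraries of each clone were apart, with log2 ratios of replicate 1 to replicate 2 of 0.96 and 0.97. The log2 FC was −1.99 (SE 0.58, 95% interval −3.48 to −0.51), and the adj. p value of 0.0527 from edgeR passed no threshold. Leaving out a library moved it between −2.56 and −1.48. In the list of skeletal muscle markers (Acta1, Ckm, Myl1) 1 of the 2 tested genes rose, Acta1 (log2 FC 3.88, SE 0.33), and the summed level was 55.6 to 72.1 normalized counts in wtPC12 and 703 to 791 in hrPC12.

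A row named NEST_RAT has the form of a protein database entry, and no file used here pairs it with Nes, so it is given under its own name and outside the counts of members. It was chosen after the names in the files were seen. It had 549 and 837 normalized counts in wtPC12 and 3051 and 3107 in hrPC12. Both hrPC12 libraries were above both of wtPC12, with a log2 FC of 2.15 (SE 0.26, adj. p value 0.00465 from edgeR).

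Krt8 codes for the type II keratin of simple epithelia, which polymerizes with keratin 18. It fell from 38055 and 29222 normalized counts in wtPC12 to 7463 and 7361 in hrPC12. The clones did not overlap, and the hrPC12 libraries were nearly equal. The log2 FC was −2.18 (SE 0.22), 4.54-fold lower, with an adj. p value of 0.00264 (edgeR). It was closest to the log2 FC threshold without wtPC12 replicate 1, at −2.01, and without wtPC12 replicate 2 it was −2.36 with an adj. p value of 0.0160, which missed the threshold. Of the 5 epithelial markers tested (Epcam, Cdh1, Cldn4, Cldn7 and Krt19), 3 fell past both thresholds, Epcam with a log2 FC of −3.40, Cldn4 with −2.33 and Cldn7 with −2.35. Krt19, the other keratin of the list, went the other way, with 3.49 and 3.09 normalized counts in wtPC12, 28.8 and 27.3 in hrPC12, a log2 FC of 3.05 and an adj. p value of 0.0122 (edgeR) that missed the threshold. It passed with RLE factors, library totals, every gene with a read, filterByExpr and the legacy option off, and not in DESeq2. The summed level of the 5 markers was 10550 to 13851 normalized counts in wtPC12 and 1654 to 1767 in hrPC12. In RNA of whole cultures, fewer cells of a kind and less RNA per cell cannot be told apart.

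Across the comparison, 5.46% of the 13726 tested genes fell past both thresholds in hrPC12 and 4.84% rose, against 2 and 1 of the 8 filament genes. At an adj. p value under 0.01 alone these shares were 7.14% and 5.94%, against 3 and 2 of the 8. Both hrPC12 libraries lay below both of wtPC12 in 35.6% of all tested genes and above them in 37.9%, against 4 and 3 of the 8. The median log2 FC was −0.70 over the 8 genes and 0.06 over all tested genes, with log2 FC from −3.90 to 9.50 within the family. Between the hrPC12 libraries, the log2 ratio of replicate 1 to replicate 2 was between −0.17 and 0.02 for the members other than Des. Between the wtPC12 libraries the spread was wider, from −0.31 (Ina) to 0.38 (Krt8) for the members other than Vim (0.76) and Des.

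The other genes of the filament system were followed through lists of partners. For the counts of all lists below, the shares among all tested genes are 5.46% lower and 4.84% higher. Of 19 other genes of cytoplasmic filaments 14 had a row, 8 were tested and 1 rose past both thresholds. This was Krt80, a type II keratin, with 4.65 and 2.06 normalized counts in wtPC12 and 567 and 583 in hrPC12, which gave a log2 FC of 7.39 (SE 0.45, adj. p value 0.000699 from edgeR). The clones were far apart for this keratin, in the direction opposite to Krt8. The other 7 genes had log2 FC from 0.37 (Krt10) to 3.05 (Krt19). Sync, which codes for a partner of desmin in muscle, had 86.1 and 115 normalized counts in wtPC12 and 646 and 317 in hrPC12, with a log2 FC of 2.25 and an adj. p value of 0.0193 (edgeR). Bfsp1, a filament gene of the lens, had a log2 FC of 2.55 and an adj. p value of 0.0137 (edgeR). Sync and Bfsp1 passed in DESeq2, with RLE factors, with library totals and with every gene with a read. They did not pass with filterByExpr, with the legacy option off or with a prior count of 2. Gfap, the filament gene of astrocytes, was not tested, with 11.6 and 7.21 normalized counts in wtPC12 and 0.847 and 0 in hrPC12. Over the 8 tested genes the median log2 FC was 2.40. Krt80, Krt19 and Krt7 reached the filter's mean of 5 only through hrPC12, with wtPC12 means of 3.36, 3.29 and 1.61 normalized counts. Gfap, lower in hrPC12, stayed under that mean. The median and range of this list thus depend in part on the filter.

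All rows named Krt with a number were then taken as a family, a set added after the names in the files were seen. There were 35 such rows, of which 9 had no read in any library, 10 were tested, 3 fell and 1 rose past both thresholds. Beside Krt8 those that fell were Krt1 and Krt76, keratins of stratified epithelia, which were named after their values were seen. Krt1 had 225 and 130 normalized counts in wtPC12 and 0.847 and 1.01 in hrPC12, which is 1 read in each hrPC12 library. Krt76 had 38.4 and 37.1 in wtPC12 and 0.847 and 0 in hrPC12. The keratins not tested had a mean under 5 normalized counts or reads in only 1 clone.

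The lamins line the inside of the nucleus and are the filament proteins found in nearly all cells. Of the 3 lamin genes tested, 0 passed both thresholds with edgeR or DESeq2. An unadjusted p under 0.05 (edgeR) was found for 1 of them, and for 6357 of all 13726 tested genes. Lmnb1 had 2073 and 2429 normalized counts in wtPC12 and 4584 and 4767 in hrPC12, for a log2 FC of 1.05 (SE 0.17, adj. p value 0.0113 from edgeR), and the clones did not overlap. The log2 FC of Lmna was 0.40 with a 95% interval of −0.04 to 0.84, and that of Lmnb2 was −0.47 with an interval of −1.02 to 0.07.

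Cytolinkers and desmosome proteins tie the filaments to membranes and to other parts of the cytoskeleton. Of 15 listed genes 8 had a row and 6 were tested, of which 1 fell and 1 rose past both thresholds. Pkp3 and Pkp2 code for plakophilins, plaque proteins of desmosomes. Pkp3 fell from 1309 and 1158 normalized counts in wtPC12 to 8.47 and 18.2 in hrPC12, with a log2 FC of −6.54 (SE 0.44, adj. p value 0.000892 from edgeR). With a library left out its log2 FC lay between −7.21 (without hrPC12 replicate 2) and −6.07 (without hrPC12 replicate 1). Pkp2 went the other way, with 197 and 155 in wtPC12 and 1108 and 644 in hrPC12, for a log2 FC of 2.32 (SE 0.36, adj. p value 0.00984 from edgeR), close to the threshold. It did not pass without hrPC12 replicate 1, without wtPC12 replicate 1 or without wtPC12 replicate 2. The cytolinker genes Plec and Ppl, which code for plectin and periplakin, had log2 FC of 1.35 and 1.52 and adj. p values of 0.0211 and 0.0165 (edgeR), with the hrPC12 libraries above those of wtPC12 in both. Jup, which codes for plakoglobin, had a log2 FC of −0.52 and an adj. p value of 0.0603.

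Of the 4 genes of filament chaperones and turnover 2 rose past both thresholds. Cryab codes for αB-crystallin, a small heat shock protein that binds desmin and vimentin filaments. It had 30.2 and 15.5 normalized counts in wtPC12 and 826 and 984 in hrPC12, with a log2 FC of 5.31 (SE 0.42, adj. p value 0.0013 from edgeR). Hspb1, which codes for another small heat shock protein, rose from 1361 and 938 to 15505 and 9264, a log2 FC of 3.43 (SE 0.36, adj. p value 0.00286 from edgeR). Both hrPC12 libraries were far above those of wtPC12 for these 2 genes. Trim32 and Dnajb6 had log2 FC of 0.37 and 0.07 and did not pass.

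**Figure D4:**
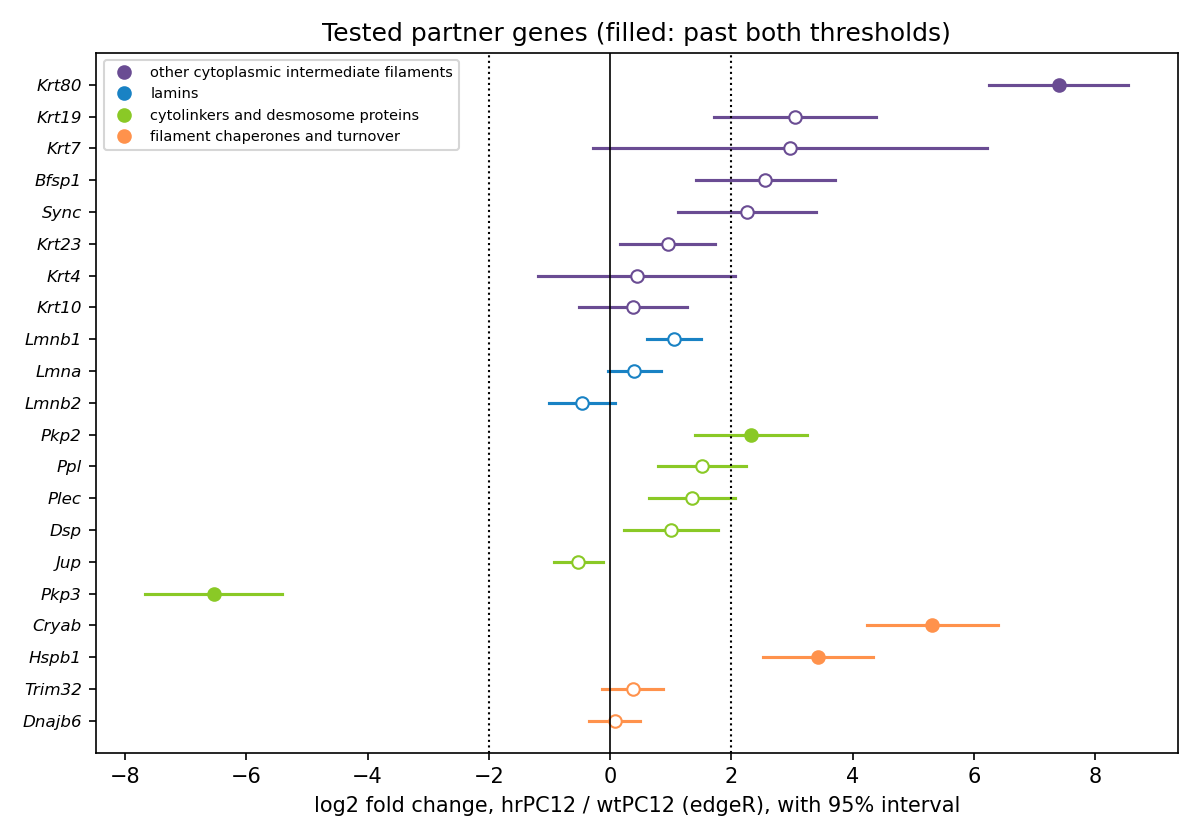
Log2 FC (hrPC12 over wtPC12) of the tested partner genes, grouped by list, with 95% intervals as lines from edgeR. Filled points passed both thresholds, with Krt80, Pkp2, Cryab and Hspb1 to the right of the upper threshold, and Pkp3, at −6.54, on the left.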

How the data were processed

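RNA was extracted from the clones wtPC12 and hrPC12 (2 libraries each, assigned by the source names) and sequenced as TruSeq libraries. Alignment by the authors was to the rat build rn4 (TopHat2 2.0.4 in the submitters' processing notes) and the authors deposited raw read counts per gene for each library (HTSeq 0.5.3 in the same notes), without normalization. Reads without a unique position or in more than 1 gene were not counted, so genes with close copies can be undercounted, and the library kit does not mark strand. Reads outside genes made up 49.9% to 55.9% of each file and stayed out of library sizes. A further deposited table of DESeq output (means per clone, fold changes and p values) was not used.

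Counts were analysed in R 4.3.3 with edgeR 4.0.16. TMM factors were applied, genes with a mean under 5 normalized counts or without reads in one clone were left out, as in the study, and the clones were compared with the quasi-likelihood test (glmQLFit with legacy on, prior count 0.125) with p values adjusted over all 13726 tested genes by Benjamini-Hochberg. Standard errors were derived from the unshrunk coefficient and the F statistic. Normalized counts are reads per effective library size, times the mean effective size. Floors and intervals of ratios describe counting error alone, as no molecular identifiers were used. A count of 3 reads corresponds to 2.54 to 3.49 normalized counts. DESeq2 1.42.0 was an alternative. The genes, lists, thresholds and tests were chosen with earlier results of these data known. Named are the members, Rest, partners past both thresholds whose clone mean reached 100 normalized counts in either clone, and the genes nearest to Vim and Prph, and other partners and single marker genes are examples chosen after their values were seen. Members were matched by symbol only. Some listed genes are not reported here.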

Additional observations from a re-analysis of the deposited data

How the results depend on the processing

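Alternatives changed the scaling (RLE factors or library totals), the filter (every gene with a read, or filterByExpr), the tool (DESeq2), the legacy option, the prior count (2) or the adj. p threshold (0.05), or dropped 1 library at a time, where a lone library is assumed to vary like those of the other clone. In all of these except the removal of wtPC12 replicate 2, Vim was called higher and Ina and Krt8 lower, and no other of the 8 filament genes was called. With a library left out, the filament genes called numbered 0 to 2 lower and 0 to 1 higher, and all tested genes 0 to 859 lower and 0 to 962 higher. The counts of 0 came from edgeR without wtPC12 replicate 2, where the lowest adj. p value of any gene was 0.0134, while 6798 genes and 7 of the 8 filament genes had an unadjusted p under 0.05 and 4362 genes an adj. p value under 0.05. DESeq2 was not run on 3 libraries. All tested genes called higher rose from 665 to 1127 with every gene with a read, and to 1088 at an adj. p value under 0.05. With a library left out the log2 FC of Prph ranged from −0.28 to 0.070, the latter without wtPC12 replicate 1. Partner genes called higher rose from 4 to 7 with RLE factors, library totals, every gene with a read or an adj. p value under 0.05. With either other scaling, the shift in log2 FC per gene had a median of at most 0.063 in size. No paired analysis was possible because the labels give the clones no shared replicate numbers, and the numbers used here only name the libraries of a clone in their listed order. Depth limits Vim in wtPC12 and Des, which rest on 2 to 62 reads per library.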
